A study of Mus musculus with 31 samples.

Results

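Fpr1, Fpr2, Fcrl5, Klra2, Cd244 and Apobec2 are 6 genes whose kidney mRNA was higher in mice with polycystic kidney disease than in wild-type mice and higher again in diseased mice given RGLS4326. They were chosen on those very differences, from the gene counts of 31 kidneys, so their levels in the 3 groups are given as a description and carry no test. A gene was called where edgeR's quasi-likelihood test gave a Benjamini-Hochberg adjusted p under 0.05 and a log2 fold change over 0.5 in size. Of 23509 genes counted, 15185 passed the filter on low counts, and 8 of these, or 0.0527%, were called higher in both comparisons. The 6 genes were among these 8, and all 6 passed the filter. The other members of the 8 were the gene models Gm1720 and Gm13710. Of the 6, 5 are cell surface receptors of leukocytes, whereas Apobec2 encodes an intracellular protein and is no receptor.

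The diseased mice were male Pcy/CD1 animals, which carry the pcy mutation on the outbred CD1 background and develop slowly growing renal cysts. One group of 14 received RGLS4326, a short chemically modified oligonucleotide against the microRNA miR-17, at 25 mg/kg monthly under the skin from 5 to 30 weeks of age. The control group of 12 Pcy/CD1 mice received phosphate-buffered saline (PBS) over the same 25 weeks. The sample characteristics and the study's description of this cohort give weekly injections of PBS, although the labels' treatment text reads as monthly. With weekly PBS, the injection schedule and the drug cannot be told apart in this comparison. A further 5 untreated male WT/CD1 mice of 30 weeks served as the wild-type group (WT). Each library came from the kidney of 1 mouse, and the mRNA was read as bulk tissue, in which fewer cells of a type and less RNA per cell cannot be told apart.

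Formyl peptide receptors sit on neutrophils, monocytes and macrophages and bind peptides that begin with N-formylmethionine, which bacteria make and damaged mitochondria release. They signal through inhibitory G proteins to steer migration and the oxidative burst. The other receptors belong to families that tune leukocyte activation through tyrosine motifs in their cytoplasmic tails: Fcrl5 is an Fc receptor-like protein best known from B cells, Klra2 is the Ly49B lectin-like receptor found on myeloid cells, and Cd244 is the SLAM family receptor 2B4, which binds CD48 on neighbouring cells. Apobec2 is a member of the AID/APOBEC deaminase family best known from skeletal and heart muscle.

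The drug's target is the first sequence of interest. The mature strand of mouse miR-17, from RefSeq on GRCm38.p6, lies at chr14:115043684-115043706 on the plus strand and is shown with its seed, bases 2 to 8, in capitals.
mmu-miR-17-5p: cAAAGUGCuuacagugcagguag
A 3′ untranslated region that pairs with all of bases 2 to 8 holds GCACTTT, and only this full match was counted over all genes. The longest annotated 3′ untranslated region (GENCODE vM21) of none of the 6 genes held these letters. Of the 21039 genes with such a region 11.8% did, so a set of 6 genes would often hold none. The region of Fpr2 held 1 match to only 6 of the seed's bases.

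The promoters of 4 of the genes are shown: those of the neighbours Fpr1 and Fpr2, that of Klra2, which held 2 of the motifs searched, and that of Apobec2, the gene that is no receptor. Fpr1 (chr17:17876471-17883940, minus strand) and Fpr2 (chr17:17887824-17893952, plus strand) are transcribed away from each other, with 3883 bases between their annotated starts. Klra2 lies at chr6:131219223-131247362 on the minus strand and Apobec2 at chr17:48419231-48432930 on the minus strand. Each sequence runs from 250 bases before to 50 bases after the RefSeq start on GRCm38.p6, in the direction of the gene: chr17:17883890-17884189 for Fpr1, chr17:17887574-17887873 for Fpr2, chr6:131247313-131247612 for Klra2 and chr17:48432679-48432978 for Apobec2. Capitals mark matches, on either strand, to GAGGAA (the core bound by PU.1 and related ETS factors), TTGCNNAA (bound by C/EBP factors) and CAGCTG (an E-box).
Fpr1: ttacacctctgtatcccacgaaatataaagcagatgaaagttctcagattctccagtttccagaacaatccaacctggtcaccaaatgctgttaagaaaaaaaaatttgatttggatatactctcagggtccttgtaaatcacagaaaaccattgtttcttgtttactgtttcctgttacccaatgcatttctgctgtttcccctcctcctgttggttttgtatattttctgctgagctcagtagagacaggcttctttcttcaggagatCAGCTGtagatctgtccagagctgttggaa
Fpr2: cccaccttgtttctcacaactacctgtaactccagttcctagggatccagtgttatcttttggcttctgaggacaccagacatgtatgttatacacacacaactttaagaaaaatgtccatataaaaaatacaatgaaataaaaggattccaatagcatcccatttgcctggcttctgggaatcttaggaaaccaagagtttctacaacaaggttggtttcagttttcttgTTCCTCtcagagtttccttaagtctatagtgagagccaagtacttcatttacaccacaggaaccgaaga
Klra2: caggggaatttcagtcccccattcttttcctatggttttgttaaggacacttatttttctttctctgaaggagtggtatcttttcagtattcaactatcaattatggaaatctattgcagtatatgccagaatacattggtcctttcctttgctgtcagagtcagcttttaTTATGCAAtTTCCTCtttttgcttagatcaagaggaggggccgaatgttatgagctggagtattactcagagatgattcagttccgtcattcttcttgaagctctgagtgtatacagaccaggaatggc
Apobec2: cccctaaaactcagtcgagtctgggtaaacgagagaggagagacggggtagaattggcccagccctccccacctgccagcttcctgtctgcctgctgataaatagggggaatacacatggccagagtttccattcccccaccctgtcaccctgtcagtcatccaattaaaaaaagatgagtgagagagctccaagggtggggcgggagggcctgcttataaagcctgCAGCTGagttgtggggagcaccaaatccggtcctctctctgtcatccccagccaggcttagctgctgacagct
GAGGAA was found on the reverse strand of Fpr2 and Klra2 and, in a sequence not shown, on the forward strand of Cd244. Over 32851 promoters of the same length, 28.3% held it. TTGCNNAA was found in Klra2 and Cd244 and in 10.8% of all promoters, and CAGCTG in Fpr1 and Apobec2 and in 16.3%. Fcrl5 (chr3:87435773-87500678, plus strand) held none of the 3. In Klra2 the GAGGAA and TTGCNNAA matches lay next to each other, and these matches are letters only, with no measurement of binding behind them.

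Counts assigned to genes ranged from 14892524 to 27459962 per kidney, and at this depth 3 counts corresponded to between 0.177 and 0.182 CPM (counts scaled to a common library size) in the WT mice. Kidney epithelial markers were abundant in each library, with Umod, the uromodulin of the thick ascending limb, between 3600 and 5460 CPM in every mouse. Libraries fell into 3 index series, counted within each group by the restarts of their sample numbers. Series of the same number were assumed to match between groups, so that each holds mice of every group. One library stood apart. The mouse labelled RGLS4326 replicate 9 had summed macrophage markers of 260 CPM, inside the WT range of 255 to 290 and below the PBS range of 565 to 915. Its summed injury markers were 720 CPM, against 333 to 861 in WT and 2870 to 7200 in PBS. The members' treated to PBS ratios, their likeness to one another and to the marker sums, and their nearest genes are given with and without it. Its counterpart for the receptors, RGLS4326 replicate 2, had the highest macrophage sum of the treated mice, 1130 CPM.

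In WT kidney Fpr1, the high-affinity formyl peptide receptor, was close to absent, at 0, 0.178, 0.0592, 0 and 0.0602 CPM in the 5 mice, which is 5 counts in all. PBS mice ranged from 0.0464 to 1.04 CPM with a median of 0.519, and RGLS4326 mice from 0.0511 to 4.63 with a median of 1.28. Of the 12 PBS mice, 9 lay above the highest WT mouse, and 10 of the 14 treated mice lay above the highest PBS mouse. The group means were 0.0595 ± 0.0727 (SD, n = 5), 0.489 ± 0.313 (SD, n = 12) and 1.55 ± 1.06 (SD, n = 14) CPM. Fitted log2 fold changes were 2.95 ± 0.87 (SE) for PBS against WT and 1.63 ± 0.37 for RGLS4326 against PBS. With so few WT counts the PBS to WT ratio of summed counts, 8.59, had an exact 95% interval of 3.59 to 26.9, which covers counting error only. Replicate 2 alone held 21.3% of the summed treated CPM. Without it the treated mean was 1.32 ± 0.608 (SD), 2.69 times the PBS mean, and without replicate 9 it was 1.67 ± 1.01, or 3.41 times.

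Fpr2, the formyl peptide receptor that also binds serum amyloid A and annexin A1, was detected in every kidney. The WT mice had 0.177, 0.356, 0.177, 0.242 and 0.361 CPM, from 3 to 6 counts each. PBS mice ranged from 0.415 to 2.03 CPM (median 1.23) and treated mice from 0.307 to 6.81 (median 2.69). All 12 PBS mice lay above the highest WT mouse, so these groups did not overlap. Of the treated mice, 10 lay above the highest PBS mouse, and replicate 9 lay below the lowest. The log2 fold changes were 2.09 ± 0.49 (SE) for PBS against WT and 1.28 ± 0.26 for RGLS4326 against PBS, and the ratios of mean CPM were 4.30 and 2.46. Leaving out replicate 2 or replicate 9 gave a treated to PBS ratio of 2.18 or 2.62. The count of Fpr2 is uncertain in 1 respect: the annotation has it overlap Fpr3 on the same strand, and 271 of its 1059 windows of 75 bases, or 25.6%, also occur in Fpr3 or Gm5966. Fpr3 was listed at 0 in every mouse. None of the other 5 genes shared such a window with another gene.

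Fcrl5 had the largest fold of the 6 in both comparisons and the fewest counts. Among the WT mice, 4 had no count and replicate 3 had 1, or 0.0592 CPM. PBS mice ranged from 0.0994 to 0.646 CPM with a median of 0.359, from 2 to 18 counts each. Treated mice ranged from 0 to 4.03 CPM with a median of 1.21. Every PBS mouse lay above every WT mouse, and 12 of the 14 treated mice lay above the highest PBS mouse. The exceptions were replicate 6, at 0.320 CPM, and replicate 9, with 0 counts, which allows up to 3 counts. The summed counts were 95 in PBS and 1 in WT, a ratio of 29.6 per library size with an exact 95% interval of 5.18 to 1180, which covers counting error only and not the spread between mice. The fitted log2 fold changes were 4.30 ± 1.1 (SE) and 1.87 ± 0.36, of which the first depends on a single WT count. Means were 0.344 ± 0.161 (SD) CPM in PBS and 1.29 ± 0.928 in treated mice, a ratio of 3.74 that became 3.13 without replicate 2 and 4.03 without replicate 9.

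Klra2, the Ly49B receptor with an inhibitory tail, was present at 0.413, 0.416, 0.177, 0.363 and 0.542 CPM in the WT mice. PBS mice ranged from 1.14 to 2.57 CPM (median 1.47) and treated mice from 0.665 to 6.62 (median 2.66). PBS and WT mice did not overlap. Treated and PBS mice did: 8 of 14 treated mice lay above the highest PBS mouse and 13 above the PBS median, with replicate 9 the exception. The log2 fold changes were 2.08 ± 0.39 (SE) for PBS against WT and 0.87 ± 0.21 for RGLS4326 against PBS. Ratios of mean CPM were 4.28 and 1.84, and the second was 1.67 without replicate 2 and 1.95 without replicate 9.

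Cd244 (chr1:171559193-171609746, plus strand), the CD48 receptor, had 0.236, 0.238, 0.237, 0.484 and 0.422 CPM in the WT mice. The PBS range was 0.195 to 1.02 CPM (median 0.738), with 11 of 12 mice above the highest WT mouse. The treated range was 0.460 to 1.99 CPM (median 1.19), with 8 of 14 mice above the highest PBS mouse, so the groups overlapped in each comparison. Fitted log2 fold changes were 1.1 ± 0.32 (SE) and 0.74 ± 0.19, and mean CPM was 2.14 times WT in PBS and 1.68 times PBS in treated mice. The second ratio was 1.59 without replicate 2 and 1.76 without replicate 9. Cd244 overlaps Ly9, another SLAM family gene, on the opposite strand. The strand setting used for counting is not given in the sources used here. Ly9 had a log2 fold change of 0.14 ± 0.15 (SE) with RGLS4326 (adjusted p = 0.508).

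Apobec2 behaved differently from the receptors. It was the most abundant of the 6 per length and the smallest in fold. WT mice had 1.47, 3.56, 0.828, 1.21 and 1.51 CPM, and replicate 2 stood well above the other 4. The PBS range of 1.27 to 4.34 CPM (median 2.70) overlapped the WT range, with only 2 of 12 mice above WT replicate 2. Treated mice ranged from 2.40 to 9.36 CPM (median 4.11), with 5 of 14 above the highest PBS mouse and 13 above the PBS median. The log2 fold changes were 0.68 ± 0.30 (SE) and 0.62 ± 0.20. Replicate 9, lowest of the treated mice for the 5 receptors, was highest for Apobec2. Without it the treated mean fell from 4.24 ± 1.68 (SD) to 3.84 ± 0.849 CPM, and the treated to PBS ratio from 1.53 to 1.39. An annotated antisense transcript overlaps Apobec2 on the plus strand.

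**Figure D1:**
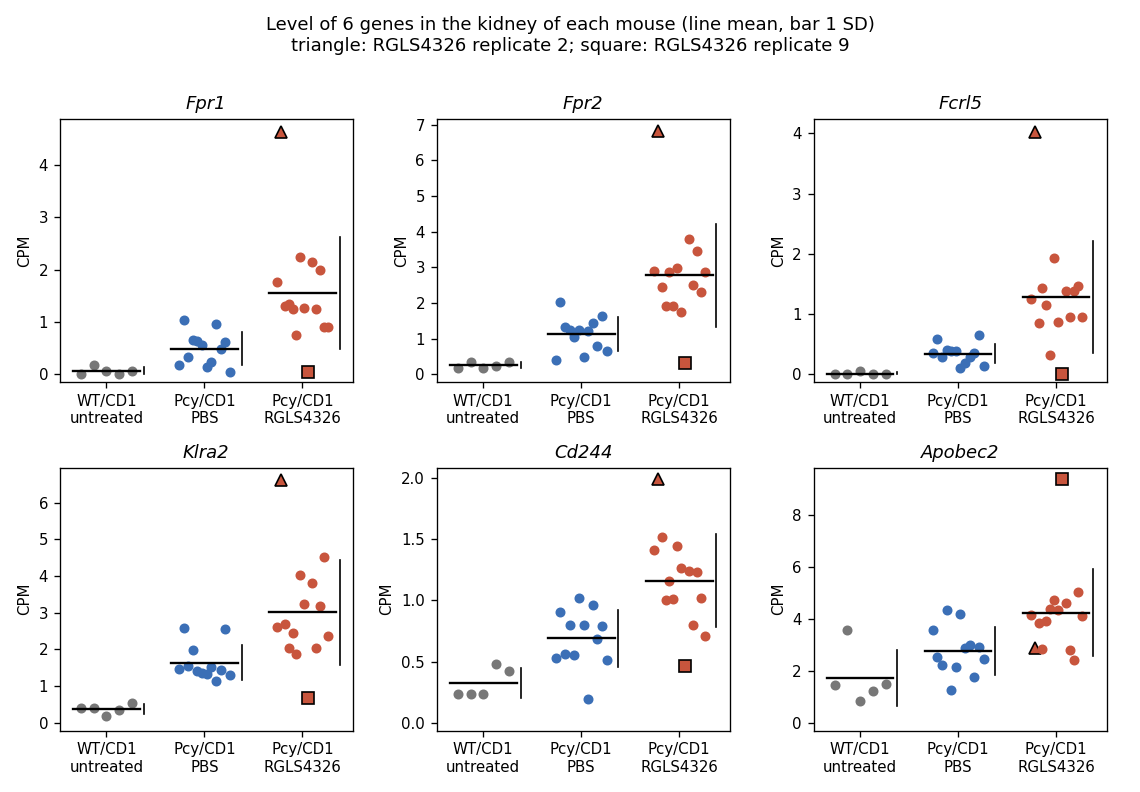
CPM of each of the 6 genes in the 5 WT/CD1, 12 Pcy/CD1 PBS and 14 Pcy/CD1 RGLS4326 kidneys, with 1 point per mouse, the group mean as a line and 1 SD as a bar that stops at 0. For the 5 receptors RGLS4326 replicate 2 (triangle) is the highest treated mouse and replicate 9 (square) the lowest, while for Apobec2 replicate 9 is the highest at 9.36 CPM.

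Levels of different genes were compared per kilobase of exon. In PBS kidney Apobec2 was highest at 1.73 ± 0.574 CPM per kb (SD, n = 12), followed by Fpr2 at 0.872 ± 0.367, Klra2 at 0.864 ± 0.25, Fpr1 at 0.369 ± 0.236, Cd244 at 0.142 ± 0.0478 and Fcrl5 at 0.0989 ± 0.0463. Fpr2 and Klra2 differed by less than the SD of either, and Cd244 and Fcrl5 by less than either SD. In treated kidney the order was Apobec2 (2.65 ± 1.05), Fpr2 (2.15 ± 1.11), Klra2 (1.59 ± 0.753), Fpr1 (1.17 ± 0.801), Fcrl5 (0.371 ± 0.267) and Cd244 (0.238 ± 0.0777), so Fcrl5 and Cd244 changed places. There each of the first 3 steps was smaller than the SD of both neighbours. In WT kidney Fcrl5 was lowest at 0.00339 CPM per kb.

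The same treated mice carried the high values. Of the 14 treated kidneys, 6 exceeded the highest PBS mouse in all 5 receptors, 2 in 4, 2 in 3 and 2 in 2 of them. In the remaining 2, replicates 6 and 9, no receptor exceeded it. Replicate 6 was nevertheless above the highest WT mouse in all 5 receptors, whereas replicate 9 was above it in 1, Klra2.

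Dependence on single mice was examined by refitting all genes 31 times, each time without 1 mouse. These fits reuse the calls that chose the genes on all but 1 of the same mice, so they show the dependence on single mice and give no support. The 5 receptors kept both calls in each of the 31 fits. Fcrl5 was tested in PBS against WT because treated mice took it past the filter on low counts: with PBS and WT mice alone it did not pass. For RGLS4326 against PBS their log2 fold changes ranged from 1.38 to 1.77 for Fpr1, from 1.11 to 1.38 for Fpr2, from 1.61 to 2.0 for Fcrl5, from 0.73 to 0.95 for Klra2 and from 0.65 to 0.80 for Cd244. The lowest values of Fpr1, Fpr2, Fcrl5 and Klra2 came without RGLS4326 replicate 2, and that of Cd244 without PBS replicate 8. For PBS against WT the folds of the rarest genes moved most, from 4.08 to 5.88 for Fcrl5, highest without WT replicate 3, and from 2.65 to 3.82 for Fpr1, highest without WT replicate 2. Apobec2 kept its call in 17 of 31 fits for RGLS4326 against PBS, with log2 fold changes of 0.48 to 0.69, and in 21 of 31 for PBS against WT, with 0.51 to 1.14. Its lowest drug value, 0.48, came without replicate 9 and was the single value under the size threshold. In the other 13 fits it was the adjusted p that passed 0.05.

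**Figure D2:**
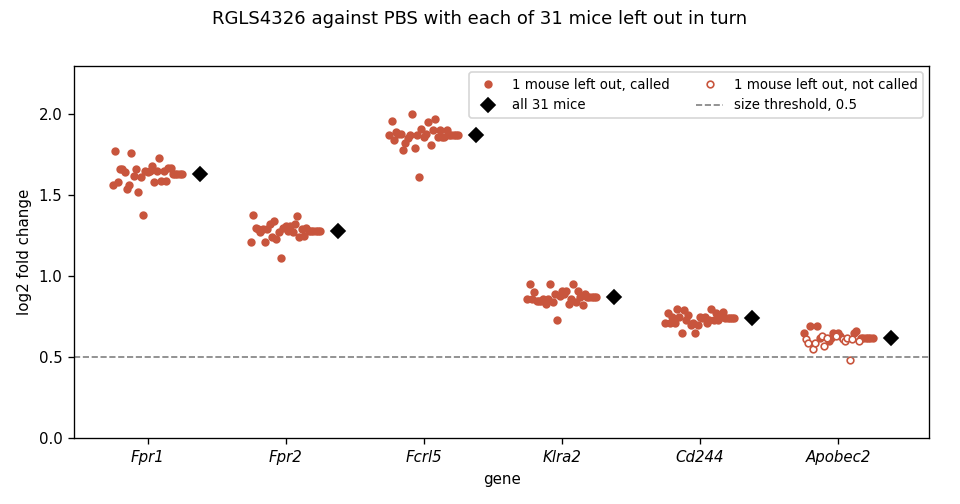
Log2 fold change of RGLS4326 against PBS (y axis) for the 6 genes (x axis), from all 31 mice (diamonds) and with each mouse left out in turn (circles, open where the gene was no longer called). The 5 receptors have filled circles throughout, between 0.65 and 2.0, and Apobec2 has 14 open circles, 1 of them below the dashed size threshold of 0.5.

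Within the 3 index series the drug fold changes kept their sign. The log2 fold changes in series 1, 2 and 3 were 1.99, 1.45 and 1.39 for Fpr1, 1.46, 0.97 and 1.37 for Fpr2, and 2.18, 1.66 and 1.71 for Fcrl5. For Klra2 they were 0.87, 0.80 and 0.96. Cd244 spread more widely, at 1.07, 0.72 and 0.41, and Apobec2 most of all, at 0.13, 1.04 and 0.57. The Apobec2 mean of treated mice in series 2, 5.34 ± 2.26 CPM (SD, n = 5), includes replicate 9. No gene was called for the drug within a single series of 4 or 5 treated and 4 PBS mice by edgeR, and 280, 2981 and 3101 genes had an unadjusted p under 0.05 in series 1, 2 and 3. DESeq2 was not run within the series.

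At the edge of the rule, Apobec2 had an adjusted p of 0.0412 for the drug and Gm13710 one of 0.0499 (edgeR). For PBS against WT their adjusted p were 0.0438 and 0.0427. Genes outside the rule were sought only among those called higher in PBS than in WT. The nearest by drug adjusted p were Ccl3, a chemokine, with a drug log2 fold change of 0.59 and an adjusted p of 0.0888, and Gm15987 with 0.53 and 0.0915. Gm13710 had mean levels of 0.191, 0.385 and 0.658 CPM in WT, PBS and treated mice. Gm1720 had no count in any WT mouse and means of 0.216 and 0.441 CPM in PBS and treated mice.

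Likeness among the 6 genes was measured across the 26 Pcy/CD1 mice as Pearson's r of log2(CPM + 1) after each group's mean was taken away, so that the group differences that chose the genes do not enter. These coefficients are descriptions, since the mice's values share a library, a scaling factor and a tissue sample. The 5 receptors varied together from mouse to mouse, with r between 0.63 (Fpr2 with Cd244) and 0.89 (Fpr1 with Fpr2). Fpr1 with Fcrl5 gave 0.88 and Fcrl5 with Klra2 0.87. Without replicate 9 the same 10 pairs ran from 0.47 to 0.84, and in the 12 PBS mice alone from 0.19 (Klra2 with Cd244) to 0.80. Apobec2 ran the other way, with r between -0.52 and -0.26. Much of that came from 1 mouse: without replicate 9 these values were -0.27 with Fpr1, -0.24 with Fpr2, -0.21 with Fcrl5, 0.12 with Klra2 and 0.04 with Cd244.

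Among all genes, those most like the receptors included several known from leukocytes. For Fpr1 the nearest were Adam19 (r = 0.91), Itgb2 (0.89), the leukocyte integrin chain CD18, then Fpr2 and Btk. For Fpr2 they were Evi2a (0.91), Siglece, Itpripl2 and Emr1, the last being the macrophage antigen F4/80 (0.89). For Fcrl5 they were Ptpn6 (0.92), the phosphatase SHP-1 that binds inhibitory tyrosine motifs, then Itgb2, Lpxn and Il10ra. Klra2 was nearest to Fgl2 (0.88), Fcrl5, Evi2a and Ptprc, the pan-leukocyte antigen CD45, and Cd244 to Adamts4 (0.81), Fpr1, Pik3cg and Kif21b. Apart from the members themselves, the log2 fold changes of these genes for RGLS4326 against PBS lay between -0.27 and 0.44, and none had an adjusted p under 0.05. Itgb2, for instance, averaged 17 CPM in PBS and 17.5 in treated mice. Apobec2 was nearest to Lipo1 (0.88), Slc9a8, Amacr and Tmco3, all lower in PBS than in WT kidney, with log2 fold changes of -1.44, -1.18, -1.35 and -0.91. Apobec2 itself was higher in PBS. These neighbours depended in part on replicate 9. Without it the first-named gene of each list ranked 3 for Fpr1, 1 for Fpr2, 2 for Fcrl5, 1 for Klra2, 2 for Cd244 and 2 for Apobec2, with r of 0.86, 0.87, 0.88, 0.82, 0.74 and 0.83. Farther down the lists Slc9a8 fell to rank 29 (r = 0.79) and Amacr to rank 12 (0.81) for Apobec2, Ptprc to rank 13 (0.76) for Klra2, and Pik3cg and Kif21b to ranks 11 (0.68) and 15 (0.67) for Cd244. Within the Fpr1, Fpr2 and Fcrl5 lists no gene fell below rank 9.

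Summed markers of cell types were set beside the genes in the same way. The macrophage sum gave r of 0.88 with Fpr1, 0.86 with Fpr2, 0.87 with Fcrl5, 0.72 with Klra2 and 0.62 with Cd244, and 0.83, 0.75, 0.80, 0.53 and 0.45 without replicate 9. Other leukocyte sums varied with the receptors too. In the order Fpr1, Fpr2, Fcrl5, Klra2 and Cd244, the natural killer sum gave 0.70, 0.76, 0.83, 0.88 and 0.53, and 0.58, 0.64, 0.76, 0.84 and 0.37 without replicate 9. The neutrophil sum gave 0.77, 0.73, 0.68, 0.52 and 0.56, and 0.69, 0.62, 0.57, 0.34 and 0.43 without it. The T cell sum gave 0.63, 0.73, 0.68, 0.70 and 0.52, and the dendritic cell sum 0.65, 0.74, 0.72, 0.67 and 0.44. Without replicate 9 these were 0.37, 0.47, 0.48, 0.45 and 0.21 for T cells and 0.40, 0.47, 0.54, 0.38 and 0.08 for dendritic cells. The monocyte sum was negative with each, at -0.44, -0.46, -0.50, -0.30 and -0.29, and at -0.17, -0.13, -0.25, 0.09 and -0.01 without replicate 9. The receptors gave 0.36 to 0.64 with the injury sum and -0.63 to -0.33 with the kidney epithelium sum. Without replicate 9, in the same order, the injury values were 0.32, 0.32, 0.24, -0.16 and 0.10, and the epithelium values -0.50, -0.50, -0.40, -0.08 and -0.23. Several leukocyte sums thus ran with the same receptors, and the differences between their coefficients were not tested. B and plasma cell markers gave r between 0.02 and 0.21 for the receptors, with the lowest for Fcrl5, and between 0.04 and 0.29 without replicate 9. Apobec2 gave -0.81 with the injury sum, 0.72 with the muscle sum and 0.69 with the epithelium sum. Without replicate 9 these were -0.69, 0.59 and 0.59. The injury sum is carried by Spp1, at a mean of 4130 CPM in PBS mice. The muscle sum is carried by Pvalb, which the distal convoluted tubule of the kidney also makes, while Myh4 had no count in any mouse and Acta1 reached at most 0.376 CPM. The monocyte sum is carried in the same way by Ace, a gene also made by renal tubule and endothelium.

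**Figure D3:**
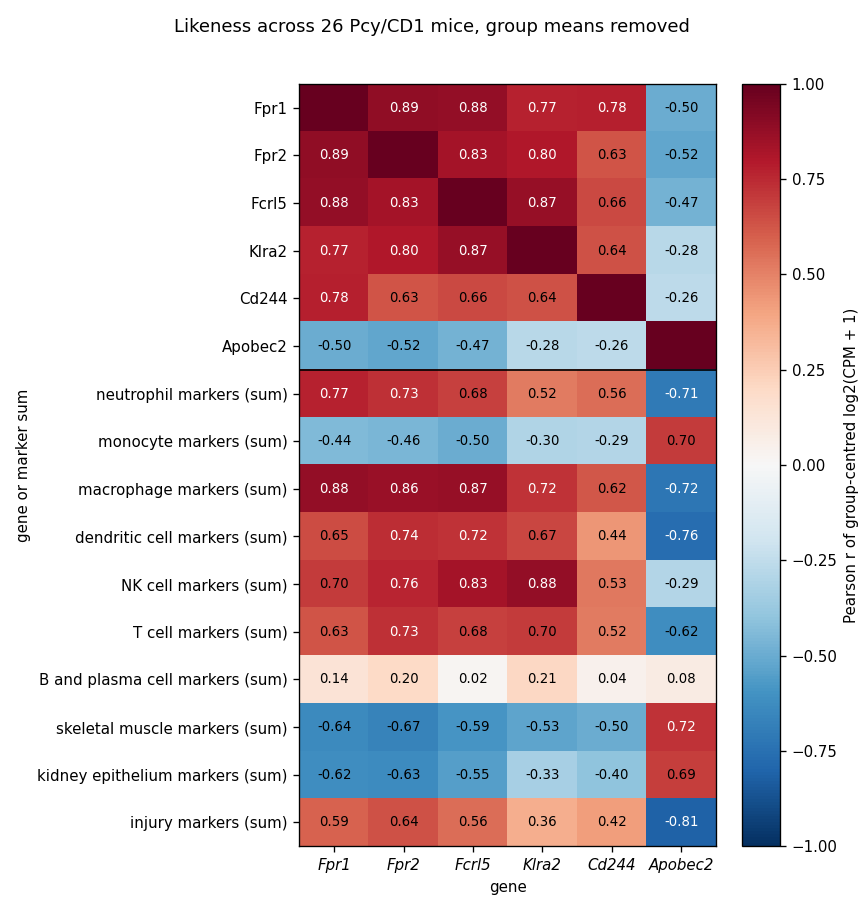
Pearson's r of group-centred log2(CPM + 1) across 26 Pcy/CD1 mice between the 6 genes (columns) and the same genes and 10 marker sums (lines of the grid, separated by a black line). The 5 receptors are positive with each other, from 0.63 to 0.89, and with macrophage markers, from 0.62 to 0.88, while Apobec2 is negative with both.

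The marker sums were then compared between the groups. The part of cell numbers in the levels of the 6 genes was not tested. The macrophage sum, over 12 genes of which 11 were tested, was 255 to 290 CPM in WT, 565 to 915 in PBS and 260 to 1130 in treated mice, with medians of 272, 737 and 698. Of the 11, 9 were called higher in PBS than in WT, beside 24.6% of all genes tested, and 1 was called lower, beside 17.8%. For RGLS4326 against PBS none was called in either direction by edgeR or by DESeq2, and at an unadjusted p under 0.05 2 were higher and 0 lower. Over all genes tested 36.8% had such a p, 19.6% higher and 17.2% lower. The neutrophil sum ran from 5.63 to 13.2 CPM in PBS and from 4.24 to 13.6 in treated mice. The highest count of its genes in any mouse was 1 for Elane, 2 for Cd177, 3 for Retnlg, 6 for Mmp8, 7 for Mpo and 9 for Trem1. It was 14 for Ltf, 15 for Ngp, 18 for S100a8, 29 for Padi4, 30 for Il1r2, 37 for S100a9, 48 for Mmp9 and 203 for Csf3r. Ltf (log2 fold change -1.10 ± 0.33 SE, adjusted p = 0.0307) and Padi4 (-0.84 ± 0.28, adjusted p = 0.0429) were called lower with RGLS4326 by edgeR, beside 1.22% of all genes. Of the 7 tested neutrophil markers 6 had a negative drug log2 fold change, with a median of -0.49. At an unadjusted p under 0.05, 3 were lower and 0 higher, and DESeq2 called 2 lower. The B and plasma cell sum had medians of 50.0 CPM in PBS and 51.4 in treated mice. The natural killer sum had medians of 11.2 and 10.9 CPM. The T cell sum had medians of 47.0 CPM in PBS and 40.8 in treated mice. Of its 10 tested genes 9 had a negative drug log2 fold change, with a median of -0.34. One of them, Cd2, was called lower by edgeR, beside 1.22% of all genes, and DESeq2 called 2 lower, beside 223 of 15185 genes. At an unadjusted p under 0.05, 5 were lower, beside 17.2% of all genes. The dendritic cell sum had medians of 642 and 514 CPM, and is carried by the MHC class II gene H2-Ab1, at means of 572 and 468 CPM. Of its 10 genes 0 were called by edgeR or DESeq2, and 2 were lower at an unadjusted p under 0.05. Of 8 monocyte markers 1, F13a1, was called lower by edgeR, beside 1.22% of all genes, and DESeq2 called 1 of them lower. At an unadjusted p under 0.05, 1 was higher and 2 were lower. The epithelium sum had medians of 12100 and 12900 CPM. Of its 8 genes Aqp2 was called lower by edgeR (-0.56 ± 0.16 SE, adjusted p = 0.0265), beside 1.22% of all genes. At an unadjusted p under 0.05, 3 of the 8 were higher and 1 lower. The injury sum had medians of 4740 and 4190 CPM, with 0 of 6 genes called. Of 4 muscle markers Pvalb was called higher by edgeR (1.27 ± 0.42 SE, adjusted p = 0.04), beside 0.935%, and 0 by DESeq2. Replicate 9 held the highest treated muscle sum, 79.2 CPM.

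The genes were also set against the macrophage sum of the same mouse. Per 1000 CPM of macrophage markers, Fpr1 had 0.0822 to 1.17 CPM in PBS mice (median 0.627) and 0.197 to 4.10 in treated mice (median 2.04). For Fpr1, Fpr2 and Fcrl5, 13 of the 14 treated mice lay above the highest PBS mouse on this scale, against 10, 10 and 12 for CPM itself, and the exception was replicate 9 each time. For Fpr2 the medians were 1.73 and 3.85, and for Fcrl5 0.418 and 1.62. Klra2 had medians of 2.28 and 4.13, with 11 of 14 treated mice above the highest PBS mouse, and Cd244 had 0.916 and 1.77, with 10 of 14. Between WT and PBS this scale depends on which markers are summed. Csf1r and Mertk carried much of the WT sum, at means of 123 and 66.9 CPM, and averaged 148 and 35.6 in PBS. C1qa, C1qb and C1qc averaged 11.6, 11.3 and 10.7 CPM in WT and 99.9, 91.1 and 88.3 in PBS. Per 1000 CPM of the whole sum the WT mice overlapped the PBS mice for all 6 genes. Medians in WT and PBS were 0.204 and 0.627 for Fpr1, 0.834 and 1.73 for Fpr2, 0 and 0.418 for Fcrl5 and 1.52 and 2.28 for Klra2. For Apobec2 the order was the other way, at 5.43 in WT and 3.52 in PBS. Cd244 in WT mice, at 0.818 to 1.67, lay within or above the PBS range of 0.331 to 1.46, with medians of 0.914 in WT and 0.916 in PBS. For Apobec2 the treated range was 2.54 to 36, with 4 of 14 mice above the highest PBS mouse. The same contrast that chose the genes enters these ratios, and they carry no test.

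**Figure D4:**
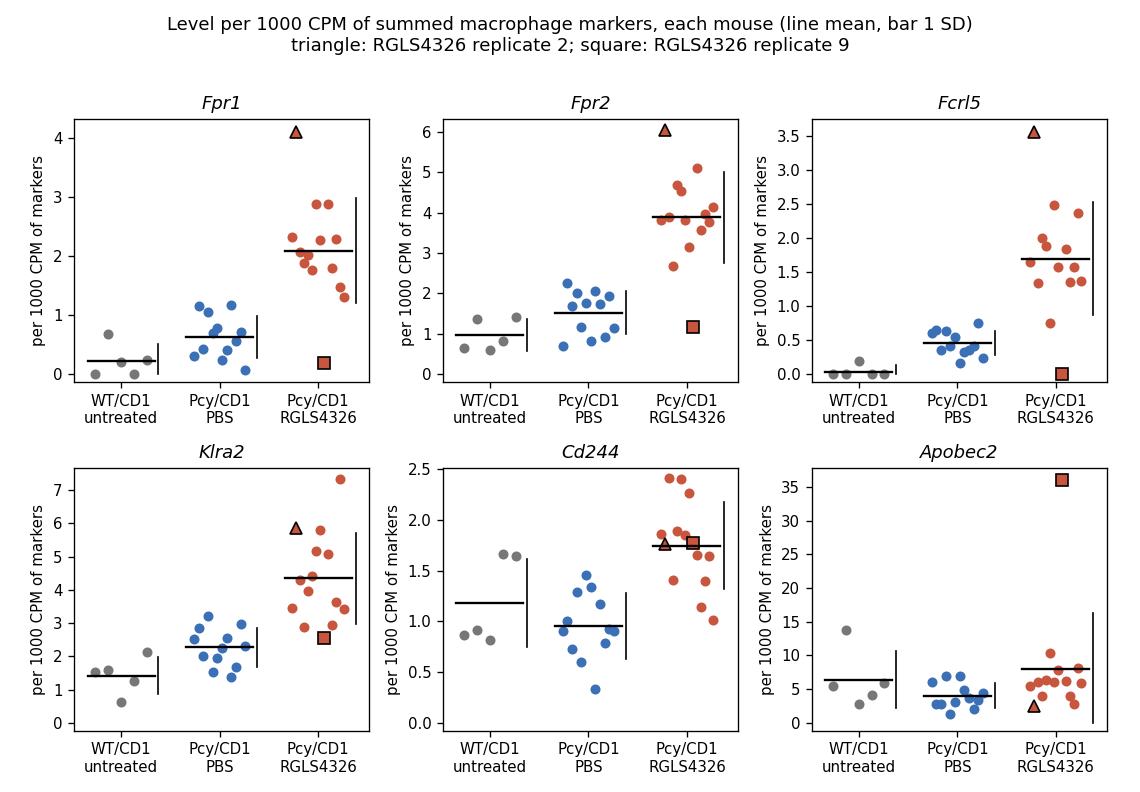
CPM of each gene per 1000 CPM of summed macrophage markers in the same kidney, for 5 WT, 12 PBS and 14 RGLS4326 mice (1 point per mouse, line for the mean, bar for 1 SD that stops at 0). Treated mice other than replicate 9 (square) lie above all PBS mice for Fpr1, Fpr2 and Fcrl5, and replicate 9 stands alone for Apobec2 at 36.

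The relatives and partners of the 6 genes offer a comparison. They were listed by family and pathway, though with earlier results of these data known, and their drug values include replicate 9. Over 8 such lists, 77 genes were tested. Of these, 62 were called higher in PBS than in WT kidney and 2 lower, beside 24.6% and 17.8% of all genes, and their median log2 fold change was 1.63 against 0.010 over all genes. For RGLS4326 against PBS, 1 of the 77 was called higher and 0 lower by edgeR, beside 0.935% and 1.22% of all genes. DESeq2 gave the same 1 and 0. At an unadjusted p under 0.05, 4 of the 77 were higher and 6 lower, where 19.6% of all genes were higher and 17.2% lower. Their median was -0.06, against -0.004 over all genes. These p-values measure the spread between the mice of this cohort. The shares over all genes given here stand beside each list below. With 0.935% and 1.22% of all genes called, lists this short would mostly hold 0 drug calls. A 0 in a single list therefore says little about that list.

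Among 10 tested chemoattractant receptors, the class to which formyl peptide receptors belong, 9 were called higher in PBS than in WT and 0 changed with the drug by edgeR, DESeq2 or an unadjusted p under 0.05. C5ar1, the receptor for complement C5a, averaged 0.693 ± 0.383 (SD), 5.53 ± 1.45 and 4.56 ± 1.52 CPM in WT, PBS and treated mice, with a drug log2 fold change of -0.28 ± 0.19 (SE, adjusted p = 0.275). C3ar1, Ccr1 and Ccr2 had drug values of 0.21, -0.23 and 0.24. The further formyl peptide receptors Fpr-rs3, Fpr-rs4 and Fpr-rs6 had no count in any mouse.

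Of 5 tested ligands of the formyl peptide receptors, 3 were called higher in PBS than in WT, beside 24.6% of all genes. With the drug 0 were called by either tool, while 2 were lower at an unadjusted p under 0.05, beside 17.2%. Anxa1, annexin A1, averaged 10.7, 38 and 27.8 CPM in WT, PBS and treated mice. Its drug log2 fold change of -0.45 ± 0.15 (SE) had an adjusted p of 0.0423 but was under the size threshold. Saa3, a serum amyloid A, had -0.96 ± 0.35 (adjusted p = 0.0569). Its relatives Saa1 and Saa2 had positive values, 0.50 ± 0.40 (adjusted p = 0.371) and 1.08 ± 0.69 (adjusted p = 0.252). The G protein, phosphoinositide 3-kinase and NADPH oxidase genes downstream numbered 21, of which 14 were called higher in PBS, none lower, and 0 with the drug by either tool, with 3 at an unadjusted p under 0.05. Ncf1, the oxidase subunit p47phox, averaged 2.43, 13.3 and 12.8 CPM.

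Among 11 tested Fc receptors and Fc receptor-like genes, 10 were called higher in PBS and 1 lower. That 1 was Fcamr, a receptor for IgA and IgM, which was also the 1 gene of the 8 lists called higher with RGLS4326: it averaged 55.4 ± 8.12 (SD), 15 ± 7.18 and 24.9 ± 11 CPM in WT, PBS and treated mice, with a drug log2 fold change of 0.74 ± 0.24 (SE, adjusted p = 0.0384). Fcrls, another member of the Fc receptor-like group, averaged 0.454, 10.6 and 15.7 CPM, with a drug log2 fold change of 0.55 ± 0.31 (SE) and an adjusted p of 0.187. Fcrl1 had -0.14 and Fcgr1, the high-affinity IgG receptor, -0.28.

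Of the 22 Ly49 and natural killer lectin-like genes other than Klra2, 5 passed the filter. All 5 were called higher in PBS and 0 changed with the drug by either tool, with 1 at an unadjusted p under 0.05, Klrg1 (-0.68 ± 0.32 SE, adjusted p = 0.116). Klra2 was thus the Ly49 gene with the most counts here: Klra17, next among the Ly49 genes, reached 11 counts in its highest mouse, against 143 for Klra2. Of 9 SLAM family genes, 8 were called higher in PBS and 0 changed with the drug by either tool or at an unadjusted p under 0.05. The Cd244 ligand Cd48 averaged 1.55, 5.93 and 6.39 CPM in WT, PBS and treated mice. Of 13 genes that signal from inhibitory and activating tyrosine motifs, 11 were called higher in PBS and 0 with the drug by either tool, and 1 had an unadjusted p under 0.05. Tyrobp, the adaptor DAP12, had a drug log2 fold change of -0.20 ± 0.18 (SE). Among the deaminases related to Apobec2, Apobec1 and Apobec3 were called higher in PBS and A1cf, the cofactor of Apobec1, lower. For the drug Apobec3 had -0.41 ± 0.12 (SE, adjusted p = 0.0300), under the size threshold, and A1cf had 0.49 ± 0.20 (adjusted p = 0.0723).

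**Figure D5:**
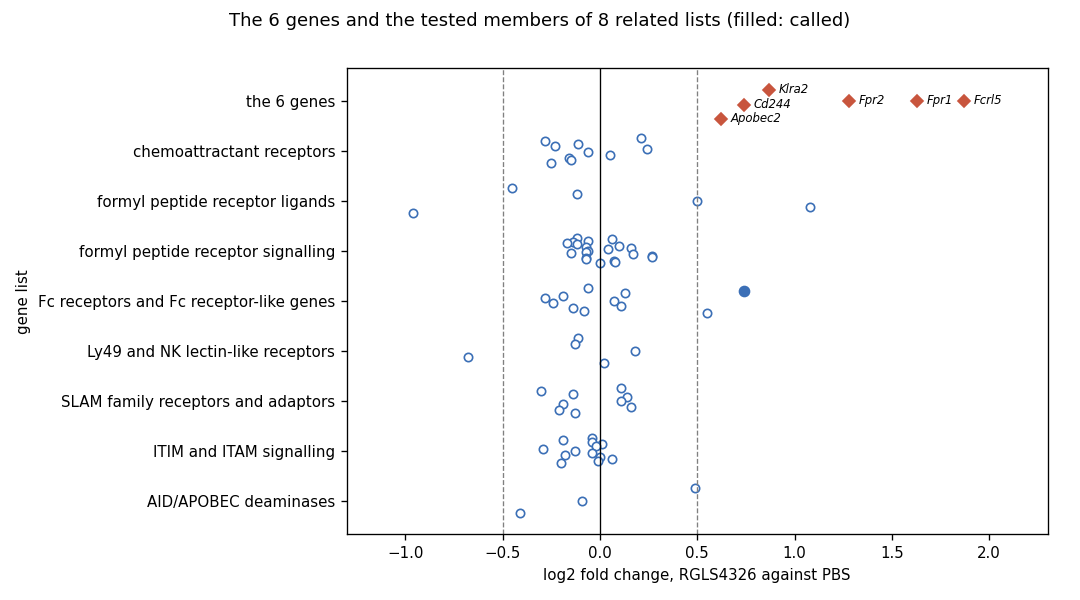
Log2 fold change of RGLS4326 against PBS (x axis) for the 6 genes, which were chosen on it (diamonds), and for the tested genes of 8 related lists (circles, filled where called), with dashed lines at 0.5 either side of 0. The 6 genes lie between 0.62 and 1.87, and of the 77 listed genes Fcamr, at 0.74, is the single filled circle.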

How the data were processed

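Kidney RNA of 31 mice was sequenced by the authors as 75-base read pairs from stranded mRNA libraries. Per the labels and the methods of the study, reads were checked with FastQC 0.11.2, trimmed with Trim Galore, aligned to GRCm38 with STAR, handled with SAMtools 1.1 and Picard 1.119, and counted per gene with HTSeq 0.6.1. The files deposited hold raw counts per gene and mouse. Of all reads tallied in the files, between 26.9% and 31.1% were on no gene, ambiguous between genes or not uniquely aligned, and were left out.

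The counts were fitted with edgeR 4.0.16 in R 4.3.3: filterByExpr, TMM scaling, 1 coefficient per group over all 31 mice, and the quasi-likelihood test, with Benjamini-Hochberg adjustment over all 15185 genes. The step was tested on simulated data. DESeq2 1.42.0 was an alternative. CPM are counts per 1000000 of the TMM-scaled library size. Other steps ran in Python 3.11.15. The members and lists were chosen with earlier results of these data known. Of 219 entries in 18 lists, 216 matched the files, 5 of them by an older symbol. Named were the 6 genes, up to 3 genes per list with the smallest p for the drug and 1 for disease, the 4 genes most like each member, defining markers, and genes next to the thresholds. Other genes with values (Umod, Fpr3, the other Fpr-rs and Ly49 genes, Cd48, Fcrl1, Csf1r, C1qa, C1qb, C1qc, Elane, Cd177, Retnlg, Mmp8, Mmp9, Mpo, Trem1, Ngp, S100a8, S100a9, Myh4 and Acta1) were picked after their values were seen.

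Index series were read, within each group, from the restart of sample numbers in the deposited files. Their match between groups was assumed. WT replicates 3 and 4 were the closest pair (chi-square per gene 2.44, where sampling noise gives about 1) and were kept as separate mice. Promoter and microRNA sequences are RefSeq's, gene positions GENCODE vM21's, both on GRCm38.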

Additional observations from a re-analysis of the deposited data

Results flagged for a closer look

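The following compares single mice with the rest of their group of 5. For Fcrl5, the highest WT mouse, at 0.0592 CPM, stood apart from 4 mice at 0, which is a single count. For Apobec2, the highest WT mouse, replicate 2 at 3.56 CPM, lay farther from the other 4 than Dixon's criterion allows, with 0.752 of the group's range between it and the next mouse. Of 6 genes tested in this way, chance alone marks about 1 group in 20. Without that mouse the WT mean of Apobec2 was 1.25 ± 0.314 (SD) CPM in place of 1.72 ± 1.07, and its log2 fold change for PBS against WT was 1.14 in place of 0.68.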

How the results depend on the processing

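Of the 6 genes, 6 were called higher in both comparisons with RLE scaling, DESeq2 and index series as a covariate, as in the result reported. Without a filter on low counts 5 were called (Apobec2 missed), and with only the 2 groups of each comparison 5 (Fcrl5 did not pass the filter for PBS and WT). A filter at a mean of 1 CPM left 3 (Fpr2, Klra2, Apobec2) since it removed the others. Within index series 1 or 2 alone 0 were called in both. Series 3 holds 1 WT mouse and was not fitted for disease. Leaving out 1 mouse gave 5 to 6. Genes called in both numbered 8 as reported, 3 at a mean of 1 CPM, 5 with only the 2 groups, and 0 in series 1 and in series 2. Without 1 mouse they numbered 5 (without RGLS4326 replicate 7) to 11 (without RGLS4326 replicate 9). Genes called for the drug numbered 327 as reported, 210 with only the 2 groups, 0 in each series alone, and 78 (without PBS replicate 10) to 574 (without RGLS4326 replicate 2) without 1 mouse. Disease calls were 6235 to 6610 without 1 mouse. With the replicate number as a block, 3 of the 6 genes (Fpr1, Fpr2, Fcrl5), 3 genes in all and 41 drug genes were called. The numbers do not pair the mice: over 12 pairs the mean correlation of deviations was -0.0496, with 4 over 0.1. Chosen after seeing the data, leaving out RGLS4326 replicates 2 and 9 together kept 5 of the 6 calls (Apobec2 had 0.51, adjusted p = 0.0515 in edgeR). The cause of these shifts was not tested unless stated. No setting reversed the sign of a fold change of the 6 genes. In WT all 5 receptors had 9 counts or fewer per mouse, which limits how well the disease fold is known.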
